A study of Mus musculus with 20 samples.

Results

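The genes described here are 10 carbonic anhydrases and bicarbonate transporters of the mouse utricle: Car2, Car3, Car4, Car12, Car13 and Car14, and Slc4a2, Slc4a4, Slc4a7 and Slc4a11. They were taken by name from the 25655 genes of the deposited count tables, of which 15803 were counted in 1 or more of the 20 libraries. Slc4a11 was selected on its measured values, because it was lower with estradiol than with raloxifene in these same libraries. Its difference in that comparison is therefore given as a description, and its comparisons with the ovariectomized controls share libraries with the choice.

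The utricle is a gravity-sensing organ of the inner ear, in which a layer of calcium carbonate crystals, the otoconia, lies over the sensory hair cells. Carbonic anhydrases convert carbon dioxide and water to bicarbonate and protons, and bicarbonate is needed both for the crystals and for the pH of the endolymph around them. The transporters of the Slc4 family move bicarbonate across cell membranes, in exchange for chloride or together with sodium.

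All mice were female C57BL/6J animals operated on at 8 weeks of age, and the utricles were taken 4 weeks later. The sham + v group had a sham operation and a vehicle pellet. The OVX + v group had both ovaries removed and a vehicle pellet, the OVX + E2 group ovariectomy and a pellet of 50 µg estradiol released over 60 days, and the OVX + RAL group ovariectomy and a pellet of 2.4 mg raloxifene over 60 days. Each group had 5 libraries, named here by the library numbers 1 to 5, 6 to 10, 11 to 15 and 16 to 20, and each library was made from 1 ng of RNA by sequencing the 3′ ends of mRNA. The labels do not say that the libraries of a group came from separate animals, so that p-values measure only the spread between these libraries, which may be technical.

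The libraries held 1123053 to 2081747 counts and 7427 to 10694 genes with a count. The OVX + E2 libraries were shallower, with 1123053 to 1507667 counts and 7427 to 9680 genes, against 1435156 to 2081747 counts and 8651 to 10694 genes in the other groups, so that a gene near the limit is counted less readily there. Over the 20 libraries 3 counts, the smallest number taken as detected, equal 1.44 to 2.67 CPM. CPM is the count of a gene scaled to a common total per library. In the OVX + E2 libraries 3 counts equal 1.99 to 2.67 CPM. The 7 markers of supporting cells and otoconial matrix summed to 1327 to 4497 CPM, led by Otog, and the 10 hair cell markers to 510 to 1619 CPM, led by Pou4f3, and every one of these 17 genes had counts. The libraries also held markers of other cells. The 6 Schwann cell and myelin markers reached 1673 to 4243 CPM, and the 10 skeletal muscle markers 3.35 to 690 CPM. In whole tissue, fewer cells of a type and less RNA per cell cannot be told apart.

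The genes lie on 6 chromosomes of GRCm39. Car13 (chr3:14706787-14728062), Car3 (chr3:14928572-14937583) and Car2 (chr3:14951333-14965830) lie on the plus strand in a cluster that spans 259044 bases and also holds Car1, on the minus strand. Only 13749 bases separate Car3 from Car2. Car14 (chr3:95805080-95812003, minus strand) is far from this cluster on the same chromosome. Car12 lies at chr9:66620968-66674127, Car4 at chr11:84848612-84856870, Slc4a2 at chr5:24628835-24645948 and Slc4a4 at chr5:89034345-89387512, all on the plus strand. Slc4a7 (chr14:7669823-7767484) and Slc4a11 (chr2:130526033-130539439) lie on the minus strand.

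Estrogen receptors bind DNA at a pair of inverted half-sites spelled GGTCA and TGACC. Promoters from 250 bases before to 50 bases after the start of transcription were listed by RefSeq (build GRCm38.p6) for 6 of the 10 genes, as 8 promoters, and are missing from that table for Car2, Car3, Car13 and Slc4a11. Both spellings were searched, which covers both strands, and overlapping matches were counted. Of all 32851 promoters of this length, 40.5% held at least 1 half-site and 10.8% held 2 or more. The full element, GGTCA and TGACC in this order with 3 bases between them, was in 0.0700% of all promoters and in none of the 8. Car14 and Car4 had 1 half-site each, Slc4a7 had 2, Car12 had none, and the promoter pairs of Slc4a2 and Slc4a4 had 0 and 3 and 0 and 1. A match is a run of letters and does not show that a receptor binds there. The promoters of Car12 and Slc4a7 are shown because Car12, a gene known to respond to estrogen in breast cells, was the most abundant membrane-bound carbonic anhydrase here, and because Slc4a7 had the widest difference between estradiol and raloxifene among the genes not selected on that difference. They lie at chr9:66713436-66713735 and chr14:14718534-14718833 of GRCm38.p6, both on the plus strand of that build, and are written in the direction of transcription with the half-sites in capitals.
Car12: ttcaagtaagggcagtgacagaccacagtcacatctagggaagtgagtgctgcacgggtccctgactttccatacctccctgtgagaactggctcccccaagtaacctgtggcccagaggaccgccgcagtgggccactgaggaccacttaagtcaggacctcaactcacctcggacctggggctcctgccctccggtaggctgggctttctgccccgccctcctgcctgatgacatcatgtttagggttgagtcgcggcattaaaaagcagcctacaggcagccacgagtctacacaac
Slc4a7: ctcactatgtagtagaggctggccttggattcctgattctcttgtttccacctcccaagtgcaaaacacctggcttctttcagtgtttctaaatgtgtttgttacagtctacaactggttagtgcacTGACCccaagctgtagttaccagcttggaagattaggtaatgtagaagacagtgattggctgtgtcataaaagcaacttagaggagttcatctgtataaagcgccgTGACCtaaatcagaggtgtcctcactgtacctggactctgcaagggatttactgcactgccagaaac
In the Slc4a7 sequence the half-sites begin at bases 128 and 234, both before the start of transcription at base 251.

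Ranked by mean level over the 20 libraries, Car3 (832 CPM) was 116th of the 15803 genes with a count, Car12 (338 CPM) 382nd and Slc4a11 (191 CPM) 782nd. The place of Slc4a11 rests on OVX + RAL replicates 16 and 17, and its median over the libraries was 54.7 CPM, next to 55.4 CPM for Car14. Reads of these libraries come from transcript ends, so CPM was not divided by transcript length when genes were compared. Car14 (90.8 CPM), Car2 (54.8 CPM), Slc4a4 (51.7 CPM), Car13 (39.09 CPM), Slc4a7 (37.0 CPM) and Slc4a2 (34.7 CPM) followed, and Car4 (1.42 CPM) was close to the limit of detection. Car3 alone took 59.5% of the counts of all 16 carbonic anhydrases in the tables, from 31.4% to 81.9% in single libraries, and Car12 took 23.5%. Slc4a11 took 55.6% of the pooled counts of all 10 Slc4 genes, but its share by library had a median of 32.9% and ran from 0.279% to 90.8%.

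**Figure D1:**
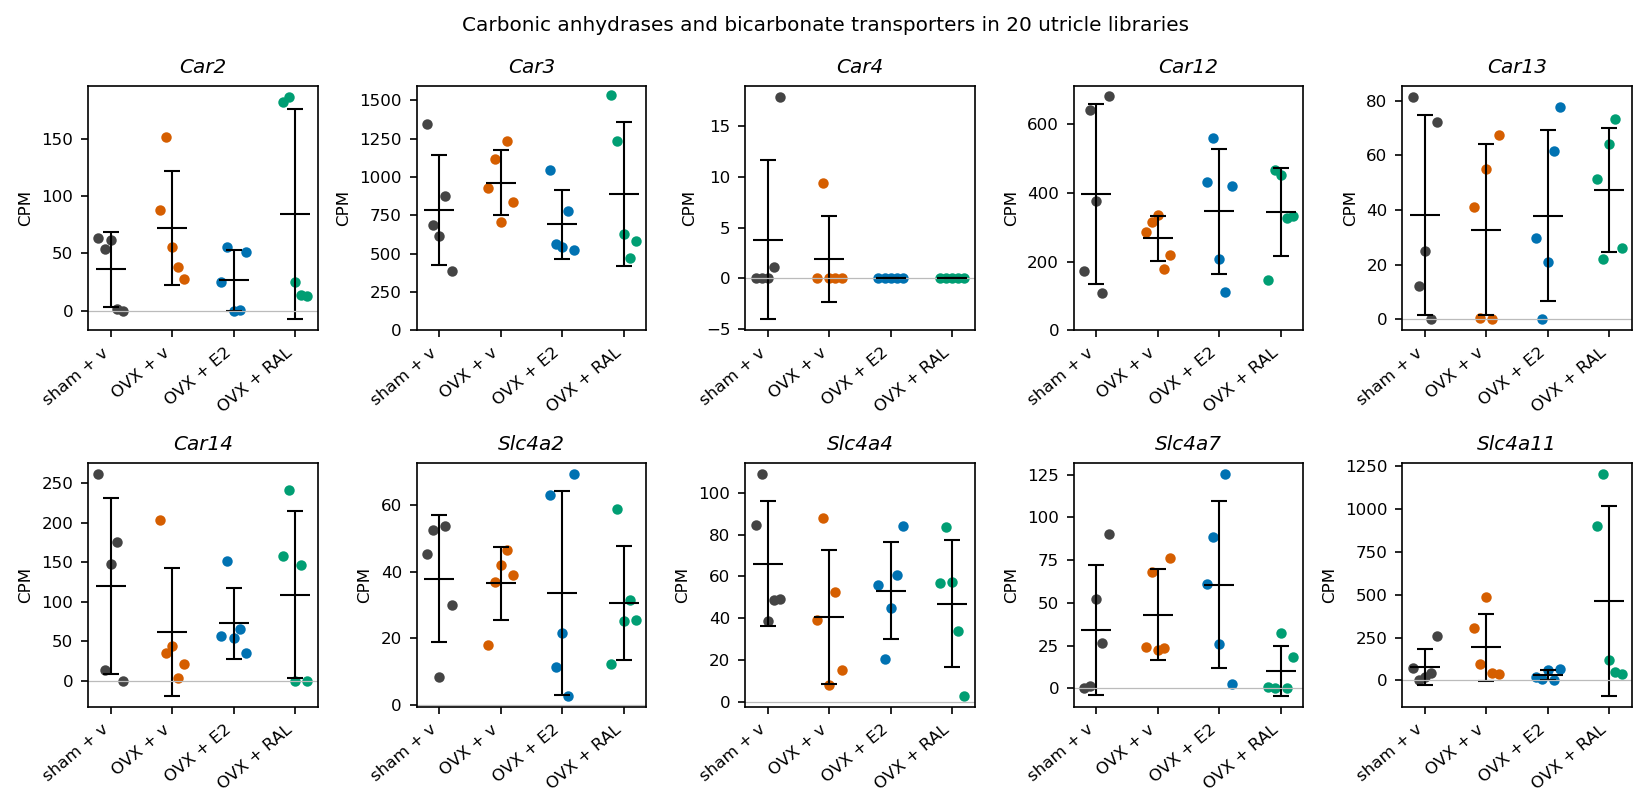
CPM (vertical axes, linear, a separate scale for each gene) of the 10 genes in the 4 groups of 5 libraries (horizontal axes). Points are libraries, in the order of their numbers, and bars give the mean and SD; the groups overlap for every gene, and OVX + RAL replicates 16 and 17 stand above all other libraries for Slc4a11 and Car2.

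The spread between libraries of a group set what these comparisons could show. Car3 was the steadiest, with a within-group coefficient of variation of 39.99%, against 2.65% from counting alone. For Car12 it was 51.7%, for Slc4a4 56.1%, for Slc4a2 59.7%, for Car13 79.0%, for Slc4a7 93.2%, for Car14 98.8%, for Car2 103% and for Slc4a11 156%. The median over the 9533 genes with a mean of at least 10 CPM was 85.2%. Most of these genes thus varied between libraries of 1 group several times more than counting error gives.

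The comparison of the sham + v with the OVX + v group asks what loss of the ovaries did. With the quasi-likelihood test in edgeR, p-values adjusted by Benjamini-Hochberg over all genes tested and a threshold of 0.05, 2 of 13825 genes (0.0145%) and 0 of the 10 genes described here differed. DESeq2 and limma called 0 of the 10 as well, and 1 of the 10 had an unadjusted p under 0.05, against 12.5% of all genes tested. This share depends on the fit, and the intervals given below come from the same edgeR fit. Under 0.05 in this comparison were 1727 of 13825 genes by edgeR, 685 by DESeq2 and 591 and 588 by limma (pseudocounts 1 and 0.1). With the filter of filterByExpr it was 148 of 8956 genes. For estradiol, in the comparison of the OVX + E2 with the OVX + v group, 8 of 13695 genes (0.0584%) and 0 of the 10 were past the threshold by edgeR, 0 of the 10 by DESeq2 and limma, and 2 of the 9 other than Slc4a11, Car3 and Car4, had an unadjusted p under 0.05, against 13.9% of all genes. For raloxifene, in the comparison of the OVX + RAL with the OVX + v group, 4 of 14002 genes (0.0286%) and 0 of the 10 were past it by edgeR, 0 by DESeq2 and limma, and 1 of the 9 other than Slc4a11, Car4, had an unadjusted p under 0.05, against 12.1% of all genes. Slc4a11 is left out of these last counts because its choice used the same treated libraries. Between the OVX + E2 and OVX + RAL groups 10 of 13753 genes (0.0727%) were past it. Of the 9 genes tested here, 8 were not past it. The remaining gene, Slc4a11, was past it but was chosen on this contrast, and nothing is read from its call. It was not among the genes past the threshold with DESeq2, limma at either pseudocount (1 or 0.1), the filter of filterByExpr or the robust fit, nor without OVX + RAL replicates 16 and 17 together. Car4 had no count in either of these groups and was not tested. The 3 comparisons with the OVX + v group share its 5 libraries.

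**Figure D2:**
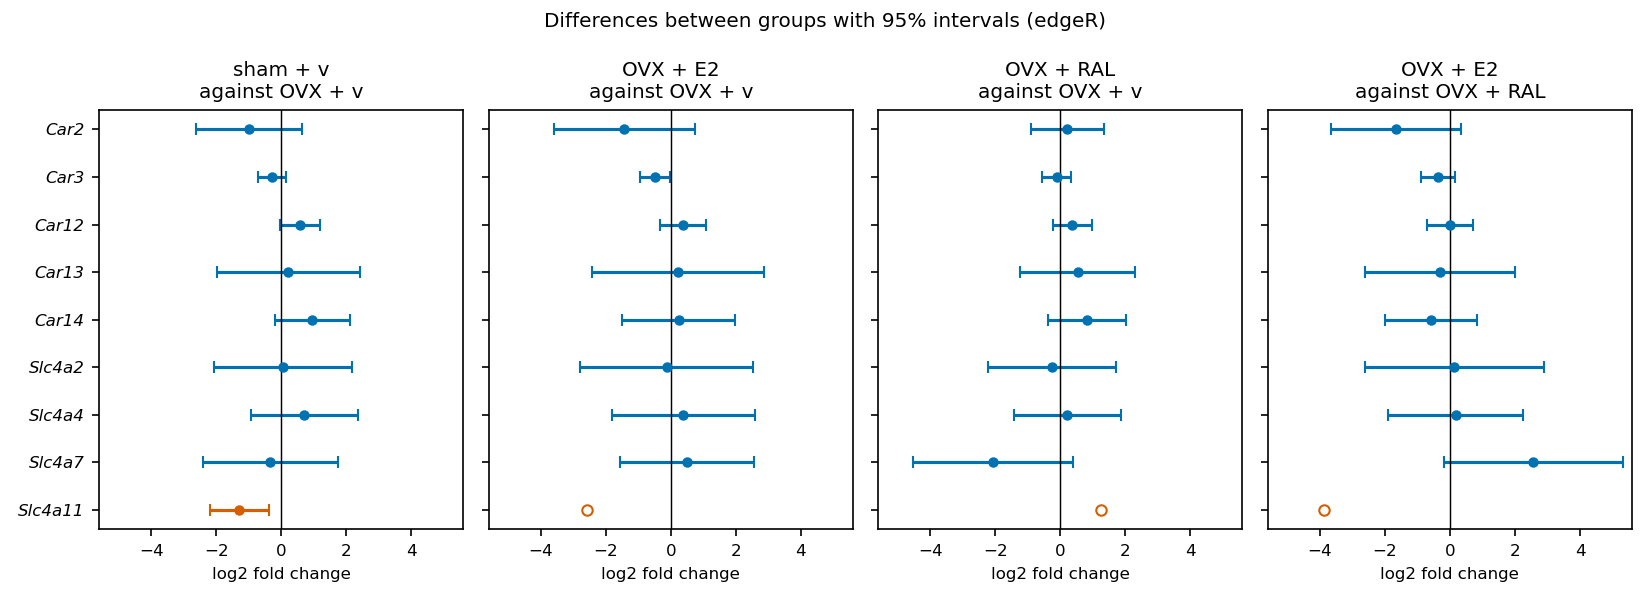
Log2 fold change (horizontal axes) of 9 genes in the 4 comparisons, with the 95% interval of edgeR's quasi-likelihood fit of 10 libraries as bars. Open circles mark Slc4a11 where the libraries that chose it enter, without an interval; Car4 is left out because 2 groups had no count, and apart from Slc4a11 only the interval of Car3 in the estradiol comparison lies off 0.

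Car3, a cytosolic carbonic anhydrase of low activity known for its abundance in muscle and fat, had 1348, 690, 618, 874 and 391 CPM in the sham + v libraries and 926, 1114, 705, 1232 and 839 CPM in the OVX + v libraries. It had 1049, 566, 541, 776 and 524 CPM in the OVX + E2 libraries and 1535, 1233, 629, 469 and 583 CPM in the OVX + RAL libraries. The means were 963 ± 211 CPM after ovariectomy alone, 890 ± 468 in the OVX + RAL group, 784 ± 360 in the sham + v group and 691 ± 224 in the OVX + E2 group (SD, n = 5 each), in this order, and no neighbours in the order were separated beyond their spread. The OVX + E2 group lay lowest, with 3 of its 5 libraries below every OVX + v library. The log2 fold change of the OVX + E2 against the OVX + v group was -0.48 (95% interval -0.93 to -0.024, adjusted p = 0.351 by edgeR), and it did not pass the threshold. The log2 fold changes from the OVX + v group were -0.30 for the sham + v group (-0.73 to 0.13, adjusted p = 0.931, edgeR) and -0.11 for the OVX + RAL group (-0.57 to 0.34, adjusted p = 0.99994, edgeR).

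Skeletal muscle is a tissue in which Car3 is abundant, and muscle markers varied widely between these libraries. They summed to 690 and 573 CPM in OVX + RAL replicates 16 and 17, where Car3 was 1535 and 1233 CPM. They summed to 3.35 CPM in sham + v replicate 4 and 6.04 CPM in OVX + E2 replicate 12, where Car3 was 874 and 566 CPM. The gene of this list with the highest mean over the 20 libraries was Pvalb (60.4 CPM). It codes for a calcium-binding protein that is also known from neurons and hair cells. Adipocyte markers, of which Lep was at 0, summed to 0 to 54.3 CPM in all libraries. By group, the muscle marker sum was highest with raloxifene (323 ± 289 CPM), followed by the OVX + v group (187 ± 137), the OVX + E2 group (83.1 ± 95.7) and the sham + v group (71.9 ± 85.1). The part of muscle RNA in the differences of Car3 was not tested.

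Car2, the fast cytosolic enzyme found in many secretory epithelia, had 63.8, 53.5, 61.6, 1.68 and 0 CPM in the sham + v libraries and 87.8, 152, 55.6, 38.1 and 27.9 CPM in the OVX + v libraries. Its level was 25.2, 55.9, 0, 0.890 and 51.2 CPM in the OVX + E2 libraries and 182, 186, 25.3, 14.2 and 12.5 CPM in the OVX + RAL libraries. In the last group replicates 16 and 17 stood far above the other 3. The group means ran from 84.1 ± 91.6 CPM (OVX + RAL) over 72.2 ± 50.0 (OVX + v) and 36.1 ± 32.4 (sham + v) to 26.6 ± 26.6 (OVX + E2), and all 4 groups overlapped. Between the OVX + E2 and OVX + RAL groups the log2 fold change was -1.65 (95% interval -3.65 to 0.34, adjusted p = 0.589, edgeR). Without replicates 16 and 17, a choice made after the values were seen, it was 0.62. The OVX + E2 group differed from the OVX + v group by -1.43 (-3.61 to 0.74, adjusted p = 0.867), the sham + v group by -0.997 (-2.63 to 0.64, adjusted p = 0.9998) and the OVX + RAL group by 0.22 (-0.92 to 1.36, adjusted p = 0.99994), all by edgeR on the log2 scale. The last of these values has no stable direction, since it was -2.06 without replicates 16 and 17 and -0.45 and -0.47 with limma (pseudocounts 1 and 0.1). Under the 8 other settings the value ran from -3.35 to -1.43 for the OVX + E2 group and from -2.87 to -0.99 for the sham + v group.

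Car13, another cytosolic member of the Car2 and Car3 cluster, had group means of 47.4 ± 22.8 CPM (OVX + RAL), 38.1 ± 36.5 (sham + v), 38.0 ± 31.4 (OVX + E2) and 32.9 ± 31.2 (OVX + v). Its counts were 167, 23, 42, 0 and 109 in the sham + v libraries, 66, 1, 97, 0 and 97 in the OVX + v libraries, 45, 0, 26, 69 and 111 in the OVX + E2 libraries and 100, 41, 109, 140 and 54 in the OVX + RAL libraries. It was thus at 0 in a library of each group but the OVX + RAL group. The log2 fold changes against the OVX + v group were between 0.21 and 0.53, with 95% intervals reaching from -2.44 to 2.85 in the widest case, so that differences of several fold either way were not detectable. Across the 20 libraries Car2 and Car3 varied together (Spearman's rho 0.59, Pearson's r 0.67), whereas Car2 and Car13 had a rho of -0.12. These correlations are descriptions over libraries that share depth and tissue make-up.

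Car12, a transmembrane enzyme whose catalytic part faces the outside of the cell, had 173, 641, 375, 108 and 681 CPM in the sham + v libraries and 287, 315, 336, 180 and 219 CPM in the OVX + v libraries. It had 432, 557, 208, 110 and 420 CPM in the OVX + E2 libraries and 147, 465, 450.0, 326 and 333 CPM in the OVX + RAL libraries. The lowest and the highest value of all 20 libraries were both in the sham + v group. The means were 396 ± 262 CPM (sham + v), 346 ± 182 (OVX + E2), 344 ± 128 (OVX + RAL) and 267 ± 65.8 (OVX + v). Relative to the OVX + v group, Car12 differed on the log2 scale by 0.57 for the sham + v group (95% interval -0.044 to 1.18, adjusted p = 0.521), 0.37 for the OVX + E2 group (-0.34 to 1.08, adjusted p = 0.9997) and 0.36 with raloxifene (-0.24 to 0.97, adjusted p = 0.99994) by edgeR. The first of these was 0.28 without sham + v replicate 5, which held the highest level. Between the OVX + E2 and OVX + RAL groups the difference was 0.0062 (-0.71 to 0.72), and a difference of more than 1.65 times either way lies outside this interval. Car12 went against Car3 over the libraries, with a rho of -0.46 and an r of -0.47.

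Car4, an enzyme anchored to the outer face of the membrane, was counted in only 3 libraries, with 2 and 27 counts in sham + v replicates 4 and 5 and 15 counts in OVX + v replicate 7. All 10 OVX + E2 and OVX + RAL libraries were at 0 counts, which allows up to 3 counts in each, or up to 2.67 CPM in the smallest of them. A difference in Car4 was not detectable at this depth.

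Car14, also a transmembrane enzyme with an outer catalytic part, had 538, 26, 249, 313 and 0 counts in the sham + v libraries and 326, 57, 79, 8 and 30 in the OVX + v libraries. Its counts were 86, 200, 67, 74 and 51 in the OVX + E2 libraries and 308, 447, 0, 280 and 0 in the OVX + RAL libraries. Within the OVX + RAL group it was thus either at 0 or near 300 or more. The group means were 120 ± 111 CPM (sham + v), 109 ± 106 (OVX + RAL), 72.7 ± 45.2 (OVX + E2) and 61.7 ± 80.5 (OVX + v). None of the 4 comparisons passed the threshold, the largest log2 fold change being 0.96 for the sham + v against the OVX + v group (95% interval -0.19 to 2.11, adjusted p = 0.699, edgeR). That value was 0.45 without sham + v replicate 1 and 2.18 without OVX + v replicate 6, the ends of its range when each library was left out.

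The gene body of Car14 runs into that of Aph1a, a subunit gene of γ-secretase on the opposite strand (chr3:95801281-95805600 of GRCm39, plus strand), by 521 bases at its 3′ end. Of the 338 stretches of 63 nucleotides in the last 400 nucleotides of the canonical Car14 transcript, 338 (100%) occur without mismatch on the opposite strand of an Aph1a transcript of the GENCODE vM39 annotation. The stretches have the length of a full read after trimming. Aph1a had counts in all 20 libraries, from 131 to 419 CPM, and tended to be higher where Car14 was lower. Over the 20 libraries the levels of the 2 genes had a Spearman's rho of -0.71 and a Pearson's r of -0.75. In the 3 libraries with no count of Car14, sham + v replicate 5 and OVX + RAL replicates 18 and 20, Aph1a had 339, 417 and 419 CPM. In sham + v replicate 1, where Car14 reached its highest level of 262 CPM, Aph1a had its lowest level of 131 CPM. The levels did not always go this way, since OVX + v replicate 9, with 8 counts of Car14, had 240.2 CPM of Aph1a.

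Pooled over the 4 groups, the sum of both genes varied less than either. Its within-group coefficient of variation was 17%, against 98.8% for Car14 and 32.7% for Aph1a, and it stayed between 244 and 463 CPM in all libraries. By group the sum was 385 ± 40.8 CPM (sham + v), 373 ± 51.3 (OVX + RAL), 368 ± 64.8 (OVX + E2) and 339 ± 84.2 (OVX + v). Aph1a alone had 266 ± 94.5 (sham + v), 264 ± 140 (OVX + RAL), 295 ± 46.0 (OVX + E2) and 277 ± 42.1 CPM (OVX + v), so that the sum had the smaller SD in the first 2 of these groups and the larger SD in the last 2. With the counts of Aph1a added to those of Car14, which was tried after the values were seen, the log2 fold changes against the OVX + v group were 0.18 for sham + v, 0.14 for OVX + RAL and 0.12 for OVX + E2, and -0.022 between the OVX + E2 and OVX + RAL groups. Whether the counting used the strand of the reads is not stated, and without strand, reads of the 2 genes in the shared stretch cannot be told apart. Whether such reads entered the counts of Car14 was not tested, and its levels are uncertain to that extent.

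**Figure D3:**
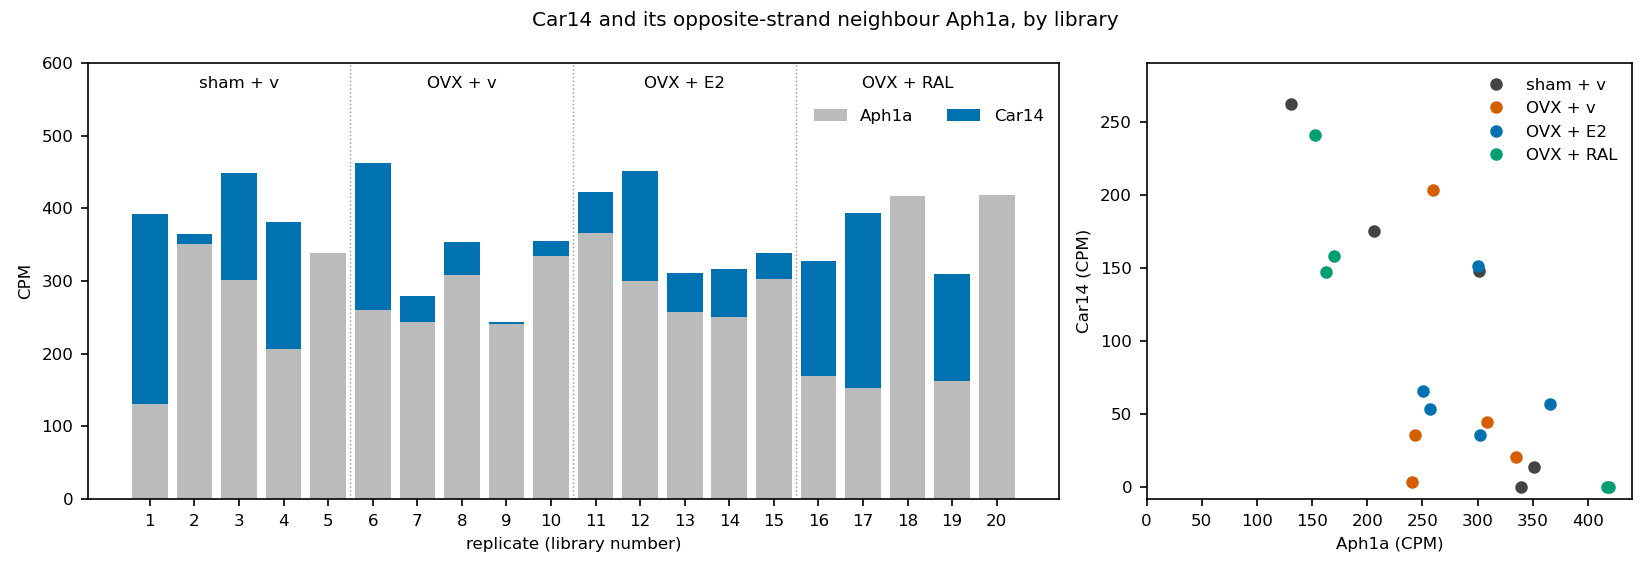
Left, CPM of Aph1a (grey) with that of Car14 (blue) stacked on it, for library numbers 1 to 20 (horizontal axis) in 4 groups. Right, CPM of Car14 against that of Aph1a, 1 point per library; the stacked height varies by 17% within groups while Car14 alone runs from 0 to 262 CPM.

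Slc4a2, a chloride-bicarbonate exchanger, overlaps in the same way with Fastk, a mitochondrial RNA-binding protein gene on the opposite strand (chr5:24643438-24650285 of GRCm39, minus strand), by 2511 bases. Of its 338 stretches, 276 (81.7%) occur on the opposite strand of Fastk. Here no such counter-movement was seen, since the levels of Slc4a2 and Fastk had a rho of -0.15 and an r of 0.067, and their sum varied by 63.8% within groups, against 59.7% for Slc4a2. The last 400 nucleotides of the other 8 genes shared no stretch of this length with another annotated gene. The counts of Slc4a2 were 93, 100, 14, 96 and 45 in the sham + v libraries, 29, 59, 74, 94 and 56 in the OVX + v libraries, 95, 15, 27, 3 and 99 in the OVX + E2 libraries and 24, 109, 43, 60 and 53 in the OVX + RAL libraries. Its means were close together, at 37.9 ± 19.1 CPM in the sham + v group, 36.5 ± 10.9 after ovariectomy alone, 33.6 ± 30.6 with estradiol and 30.6 ± 17.2 with raloxifene. Its log2 fold changes in the 4 comparisons lay between -0.25 and 0.13, with 95% intervals that reached from -2.78 to 2.89.

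Slc4a4, an electrogenic sodium-bicarbonate cotransporter, was detected in 20 of 20 libraries, though OVX + RAL replicate 20 had only 6 counts. It had 84.7, 109, 38.5, 48.6 and 49.1 CPM in the sham + v libraries and 39.2, 87.8, 7.94, 52.5 and 15.3 CPM in the OVX + v libraries. Its level was 55.7, 20.4, 44.9, 60.5 and 84.2 CPM in the OVX + E2 libraries and 57.1, 83.5, 57.6, 34.1 and 2.88 CPM in the OVX + RAL libraries. The sham + v group had the highest mean (66.0 ± 29.8 CPM) and the OVX + v group the lowest (40.6 ± 31.9 CPM), with 53.1 ± 23.3 CPM in the OVX + E2 group and 47.0 ± 30.2 CPM in the OVX + RAL group between them, and the ranges overlapped throughout. The log2 fold change of the sham + v against the OVX + v group was 0.70 (95% interval -0.95 to 2.35, adjusted p = 0.9998, edgeR), and it ran from 0.44 without OVX + v replicate 8 to 1.20 without OVX + v replicate 7.

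Slc4a7, an electroneutral sodium-bicarbonate cotransporter whose loss is known to impair hearing and sight in mice, had 0, 1.57, 52.2, 26.3 and 90.2 CPM in the sham + v libraries and 24.3, 67.8, 22.7, 23.8 and 75.9 CPM in the OVX + v libraries. It had 61.0, 88.4, 25.6, 126 and 2.81 CPM in the OVX + E2 libraries and 0.514, 0, 32.3, 0 and 18.3 CPM in the OVX + RAL libraries. The OVX + RAL group held 3 libraries with at most 1 count. Its mean of 10.2 ± 14.6 CPM was the lowest of the 4 groups, below 34.0 ± 37.9 (sham + v), 42.9 ± 26.6 (OVX + v) and 60.7 ± 48.9 CPM (OVX + E2). The OVX + RAL and OVX + E2 libraries still overlapped, because OVX + E2 replicate 15 was at 2.81 CPM. The log2 fold change of the OVX + E2 against the OVX + RAL group was 2.56 (95% interval -0.19 to 5.32, adjusted p = 0.432) and that of the OVX + RAL against the OVX + v group -2.06 (-4.52 to 0.39, adjusted p = 0.672), both by edgeR, and neither passed the threshold. In no fit without 1 of the libraries did either of them pass it, with log2 fold changes of 2.11 to 3.67 and -3.17 to -1.74.

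The utricle also holds nerve fibres with their Schwann cells, and markers of these varied between the libraries. The 6 Schwann cell and myelin markers, all of them counted in every group, summed to 1775 to 2258 CPM in the OVX + RAL group and to 2167 to 4112 CPM in the OVX + E2 group, with means of 2007 ± 183 and 3438 ± 907 CPM. In the OVX + v group the sum was 1737 to 2897 CPM and in the sham + v group 1673 to 4243 CPM. The part of Schwann cell RNA in the differences of Slc4a7 was not tested.

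Slc4a11 belongs to the same family by sequence, but is known for moving protons rather than bicarbonate, and its loss in mice and humans affects the cornea and hearing. It had 69.6, 0.525, 21.9, 41.4 and 260.0 CPM in the sham + v libraries and 303, 93.5, 487, 41.6 and 34.8 CPM in the OVX + v libraries. In the OVX + E2 libraries it had 19.2, 9.82, 63.3, 2.67 and 63.8 CPM, and in the OVX + RAL libraries 903, 1205, 119, 46.2 and 35.5 CPM. OVX + RAL replicates 16 and 17 held the 2 highest values of all 20 libraries, and replicates 18 to 20 of that group lay within the range of the OVX + v group. The group means were 462 ± 552 CPM (OVX + RAL), 192 ± 198 (OVX + v), 78.7 ± 105 (sham + v) and 31.8 ± 29.6 (OVX + E2), with SDs above the mean in 3 of the 4 groups.

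As a description, the log2 fold change of the OVX + E2 against the OVX + RAL group, on which Slc4a11 was selected, was -3.86, and the groups overlapped. Without OVX + RAL replicates 16 and 17, chosen after the values were seen, it was -1.07. Both groups were also set against the OVX + v group, which shares no library with that choice but is compared here with libraries that do. The log2 fold change was -2.59 for the OVX + E2 group and 1.27 for the OVX + RAL group. Both are given without a standard error, because the gene was chosen on these treated libraries. The second value turned to -1.52 without replicates 16 and 17, since the remaining 3 libraries had a mean of 67.0 ± 45.6 CPM. The comparison of the sham + v with the OVX + v group used no library of the choice. There the log2 fold change was -1.29 (95% interval -2.20 to -0.38, adjusted p = 0.363, edgeR), and it did not pass the threshold. Under the 8 other settings it ran from -2.19 to -1.29 and did not pass the threshold either. It was -2.52 without sham + v replicate 5 (adjusted p = 0.0132, edgeR), and between -1.56 and -0.59 without any other library.

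**Figure D4:**
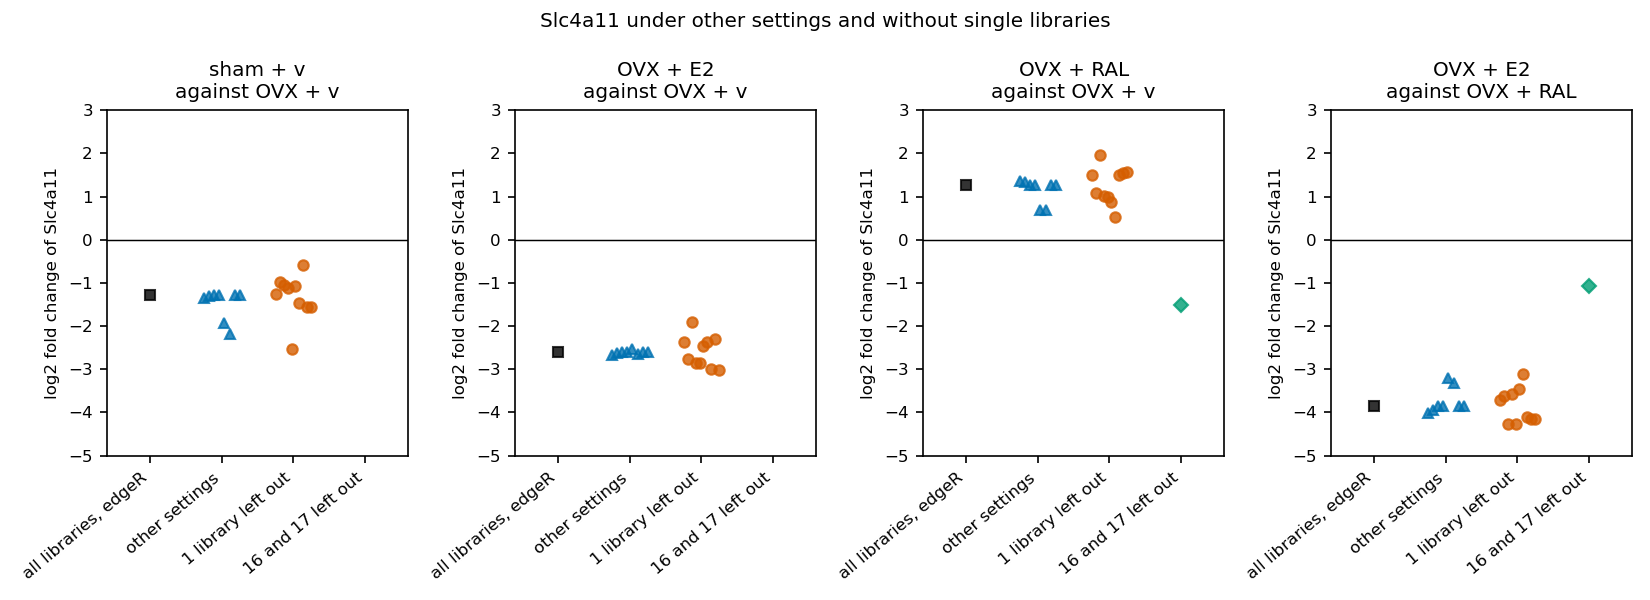
Log2 fold change of Slc4a11 (vertical axes) in 4 comparisons, from the fit of all libraries by edgeR (square), under 8 other settings (triangles), with each of the 10 libraries left out in turn (circles) and, for the 2 comparisons with the OVX + RAL group, without replicates 16 and 17 (diamond). The diamond lies at -1.52 where the other fits of the raloxifene comparison lie above 0.

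Otos, which codes for otospiralin, a protein of fibrocytes of the inner ear, was among the 5 genes most like Slc4a11 over the libraries (rho 0.74, r 0.78). It had 4589 and 3779 CPM in OVX + RAL replicates 16 and 17, above the 1410 to 2974 CPM of the other 18 libraries. In the same libraries the muscle marker Acta1 had 145 and 74.9 CPM, against at most 29.8 CPM in the others. Markers of fibroblasts summed to 1699 and 1450 CPM there, within the range of 566 to 1839 CPM of all libraries. Replicate 16 had the lowest sums of all 20 libraries for the markers of supporting cells and otoconial matrix (1327 CPM) and for the 6 markers of dark cells, the ion-transporting epithelium beside the sensory patch (689 CPM), and the second-highest erythroid sum (2909 CPM). In replicate 17 these sums were 2732, 2130 and 825 CPM. Among the genes described here, replicates 16 and 17 held the 2 highest values of Car2 and Slc4a11 and ranked 1 and 3 for Car3, whereas Slc4a7 had 1 count in replicate 16 and 0 in replicate 17. The values of Slc4a11 without them, given above, leave out its 2 highest libraries, so that a lower OVX + RAL level was fixed in advance. What made these libraries high was not tested.

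**Figure D5:**
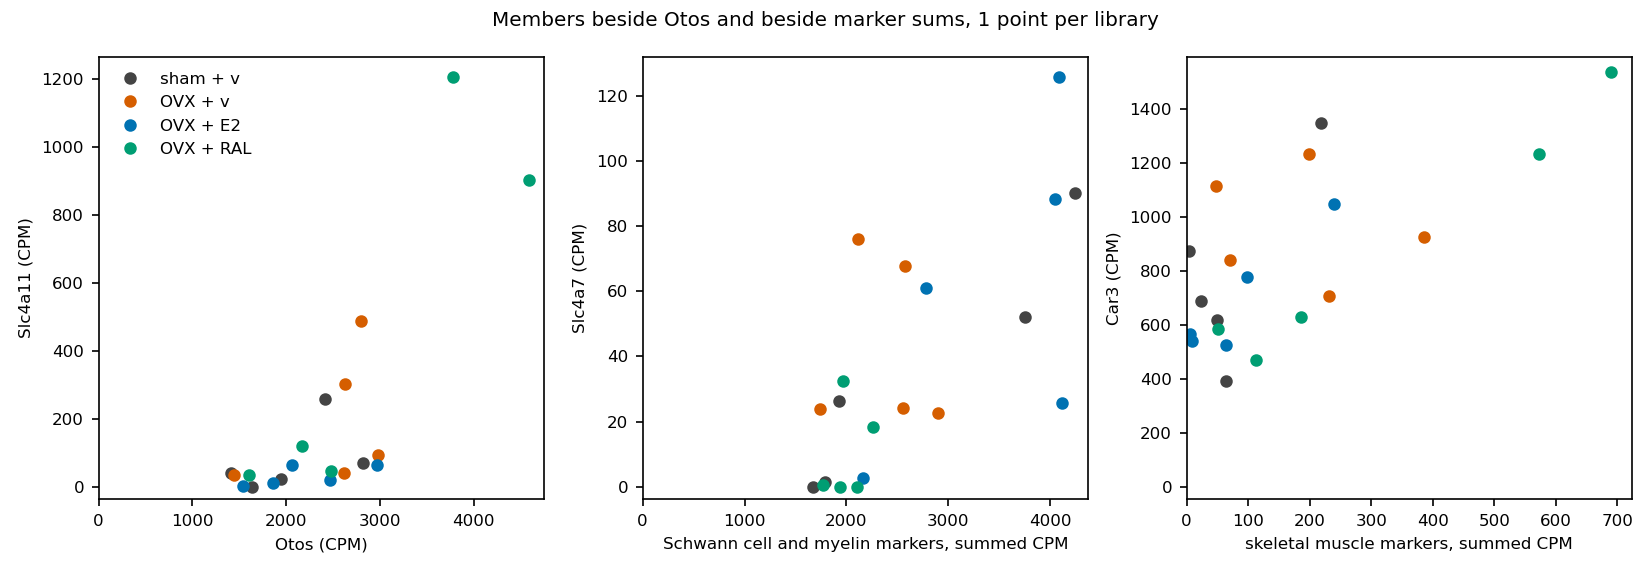
Left, CPM of Slc4a11 against that of Otos; middle, CPM of Slc4a7 against the summed CPM of 6 Schwann cell and myelin markers; right, CPM of Car3 against the summed CPM of 10 skeletal muscle markers. Each point is 1 of 20 libraries, coloured by group, and OVX + RAL replicates 16 and 17 are the 2 points highest in Otos and in muscle markers.

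The other genes most like each gene were named by Spearman's rho of CPM over the 20 libraries, among 9532 other genes with a mean of at least 10 CPM. With so many genes searched, a high rho at the top of the list is given as a description only. Slc4a11 was most like Trappc9 (0.81), Ccdc59 (0.78), Otos (0.74), Nelfb (0.74) and Skiv2l (0.73). The 5 genes most like Slc4a7 included Fubp1 (0.73), Eif2b3 (0.72), Jag1 (0.72) and Ercc2 (0.72). The 5 most like Car3 included Psmd9 (0.77), Apod (0.76), Dus3l (0.73) and S100b (0.72), of which Apod is a secreted lipid carrier and S100b a calcium-binding protein of glia, both among the abundant genes of these libraries. Car12 went with Cdkn1b (0.78), Txn2 (0.77), Mast2 (0.75), Vangl2 (0.72) and Dpf2 (0.72). Vangl2 is a gene of planar cell polarity, by which hair cells are oriented. Car2 went with Ackr4 (0.79), Tbc1d23 (0.76), Acsl3 (0.75), Ablim3 (0.74) and Suclg1 (0.73), and Car13 with Lamtor4 (0.84), Gramd1a (0.71), Arpc5 (0.70), Wdr12 (0.69) and Gjb1 (0.68). The genes nearest to Car14 were Tbcb (0.72), Prpf39 (0.71), Cybc1 (0.70), Mt3 (0.70) and Eftud2 (0.69). Those nearest to Slc4a2 were Rbbp7 (0.80), Zc3h10 (0.80), Rnf166 (0.75), Arap2 (0.75) and Ago3 (0.75), and those nearest to Slc4a4 were Fndc5 (0.78), Stoml2 (0.71), Psma7 (0.70), Ccn4 (0.70) and Fbxo46 (0.69). None of the 10 genes was in the list of another.

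Genes that work beside these enzymes and transporters were followed in lists of the other carbonic anhydrases (10 genes), the other Slc4 transporters (6), the Slc26 anion exchangers (11), the Slc9 sodium-proton exchangers (12) and the subunits of the V-ATPase, the proton pump of vesicles and of some epithelia (24). In each of the 4 comparisons 0 of these genes was past the threshold by edgeR, and 0 under every alternative setting, DESeq2 and limma included. The number with an unadjusted p under 0.05 was 1, 2, 1 and 2 of the other carbonic anhydrases in the 4 comparisons, taken here and below in the order of sham + v, then OVX + E2, then OVX + RAL against OVX + v, and last of the 2 treatments against each other. Of the 10 genes of that list 6 were tested in each comparison. The number was 3, 1, 3 and 2 of the 5, 5, 5 and 4 other Slc4 transporters tested, 3, 2, 3 and 2 of 8, 7, 7 and 5 Slc26 exchangers, 0, 1, 3 and 2 of 8, 8, 10 and 9 Slc9 exchangers and 2, 3, 4 and 4 of 21, 21, 22 and 22 V-ATPase subunits. Over all genes tested the share was 12.5%, 13.9%, 12.1% and 14.1%.

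The V-ATPase was the best measured of these lists, with 19 of 24 subunits at a mean of 10 CPM or more, led by Atp6v0c (438 CPM), Atp6v1f (420 CPM) and Atp6v0b (299.9 CPM). Its median log2 fold change was -0.031, -0.11 and 0.079 in the 3 comparisons with the OVX + v group, beside -0.023, -0.060 and -0.033 over all genes tested. Between the OVX + E2 and OVX + RAL groups it was -0.20, beside -0.013 over all genes. Of the 3 abundant subunits, the log2 fold change of Atp6v0c against the OVX + v group was 0.23, 0.33 and 0.29 (standard errors 0.289, 0.316 and 0.278), that of Atp6v1f 0.085, 0.097 and 0.20 and that of Atp6v0b -0.050, 0.29 and -0.13. Atp6v1b1, the B subunit of specialised acid-secreting epithelia, had no count in any library.

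The Slc26 exchangers were led by Slc26a7 (97.5 CPM), Slc26a2 (73.6 CPM) and Slc26a4 (49.1 CPM). Slc26a4 codes for pendrin, which secretes bicarbonate into the endolymph, and its log2 fold changes in the 4 comparisons were -0.16, -0.071, 0.51 and -0.59 (standard errors 0.966, 1.16, 0.714 and 1.00). The median of the list was -0.47, -0.27, -0.38 and -0.085 over 8, 7, 7 and 5 genes tested. Slc26a5, the motor protein gene of cochlear outer hair cells, had no count. The Slc9 exchangers, which trade sodium for protons, had medians of -0.27, -0.91, -0.42 and 0.17 over 8, 8, 10 and 9 genes tested.

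The remaining carbonic anhydrases were at low levels, the highest being Car7 (20.7 CPM), Car11 (11.7 CPM) and Car8 (6.35 CPM). Car1, the main enzyme of red blood cells and the neighbour of Car3, had a mean of 0.0808 CPM and Slc4a1, their anion exchanger, 0.496 CPM, although the 6 erythroid markers, most of them globins, summed to 363 to 3837 CPM. The medians of the list were -0.13, -0.15, -0.053 and -0.48 over 6 genes tested in each comparison. Of the other Slc4 genes, Slc4a10 (16.1 CPM), Slc4a3 (11.4 CPM) and Slc4a8 (11.1 CPM) were the highest. Slc4a10, a sodium-bicarbonate transporter of neurons, had no count in the 5 sham + v libraries and 200 CPM in OVX + RAL replicate 17, against at most 22.3 CPM in any other library. The medians of this list were -4.84, -1.90, -4.88 and 1.21 over 5, 5, 5 and 4 genes, which are fitted values of genes with many zeros and set no size to a change.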

How the data were processed

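The RNA of 20 mouse utricle libraries in 4 groups of 5 was analysed, grouped by the labelled treatment. As the study describes it, the authors trimmed adaptors and the first 12 nucleotides of reads of 75 cycles and removed reads under 20 nucleotides. They mapped the rest to GRCm39 with default settings and used CLC Genomics Workbench for counting. The version, the strand used in counting and the handling of reads with several matches are not given in the sources used here. The deposited counts are raw total counts of reads per gene, with 0 columns of other samples. The 5 OVX + v libraries stand in 3 deposited tables with identical counts. The authors' deposited CPM, TPM and RPKM and their comparisons (fold changes and p-values) were not used.

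CPM was calculated from the deposited counts and their totals. Groups were compared with edgeR 4.0.16 (glmQLFit and glmQLFTest, R 4.3.3) on 10 libraries, with the total count as library size, no TMM factor and genes of at least 10 summed counts. P-values were adjusted by Benjamini-Hochberg over all genes tested, with a threshold of 0.05. Standard errors are the log2 fold change over the square root of F, and 95% intervals use the t quantile of the fit. Alternatives were TMM, DESeq2 1.42.0, no filter, filterByExpr, limma 3.58.1 on log2(CPM + 1) and log2(CPM + 0.1), the robust fit, 1 fit of all 4 groups, and the omission of each library in turn. Leaving out OVX + RAL replicates 16 and 17 together and adding the counts of overlapping neighbours were chosen after the values were seen. Fits were tested on simulated data. Of 40 pairs of libraries within groups, 0 had identical counts.

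Transcript ends were compared in GENCODE vM39, and promoters were taken from RefSeq (GRCm38.p6). Python 3.11.15 was used with numpy 2.4.6, pandas 2.3.3, scipy 1.17.1 and matplotlib 3.10.9. The genes and lists were chosen with earlier results of these data known. Every gene chosen is named, as are of each related list any gene past the threshold and the 3 with the highest mean CPM, and the 5 genes most like each gene of at least 10 CPM. Some genes that this rule names are not reported here. Slc4a1, Slc26a5, Atp6v1b1, Acta1, Pvalb, Aph1a and Fastk were named after their values were seen. Reads carry no molecular identifiers, so the detection limit of 3 counts covers counting error only.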

Additional observations from a re-analysis of the deposited data

Results flagged for a closer look

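In 5 of 38 sets of values (1 gene in 1 group) 1 library stood apart. This was judged by its gap to the nearest other value over the range of all 5. For normal values the cutoff would flag about 1.90 sets. Many of these values are 0 or skewed, so that number is no chance rate for them, and no excess is read from it. Car4 and Car14 account for 4 of the 5 sets. Car4 had 17.9 CPM in sham + v replicate 5, where the next library had 1.12 CPM, and 9.41 CPM in OVX + v replicate 7, where the others were at 0. Car14 had 203 CPM in OVX + v replicate 6, above 44.8 CPM in the next library, and 151 CPM in OVX + E2 replicate 12, above 65.9 CPM. Aph1a, whose transcript covers the 3′ end of Car14 on the opposite strand, had 260 and 301 CPM in these libraries. Slc4a11 had 260.0 CPM in sham + v replicate 5, above 69.6 CPM in the next library. Without that library the log2 fold change of the sham + v against the OVX + v group passed the threshold (-2.52, adjusted p = 0.0132, edgeR).

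The OVX + E2 and OVX + RAL groups differed in Slc4a11 by -3.86 on the log2 scale. This is the difference on which the gene was selected, and it is given as a description only. With OVX + RAL replicates 16 and 17 left out it was -1.07.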

How the results depend on the processing

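Over all genes and alternatives, 644 of 724 log2 fold changes kept their direction and side of the threshold, 64 changed sign, 10 came to pass the threshold and 6 no longer passed it. No value that changed sign was past the threshold, and the related lists had 0 genes past it throughout. Genes at or near 0 in some libraries and a within-group spread of 39.99% or more set the limits of these comparisons. No paired analysis was possible because the library numbers of the labels differ between groups.

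The number of the 10 genes past the threshold was 0 to 1 without each library in turn in all 3 comparisons with the OVX + v group, and Slc4a11 was the gene in each case. For the sham + v group the number was 1 without replicate 5. It was 1 for the OVX + E2 group without OVX + v replicate 10 or OVX + E2 replicate 13 or 15 and with all 4 groups in 1 fit, and 1 for the OVX + RAL group without OVX + v replicate 6 or 8 or OVX + RAL replicate 18, 19 or 20. These last counts use the libraries on which Slc4a11 was chosen and are no test of it, and the other 9 genes gave 0 in every fit. Between the OVX + E2 and OVX + RAL groups it was 0 with DESeq2, filterByExpr, limma with either pseudocount, the robust fit and without OVX + RAL replicates 16 and 17 together. The cause was not tested.

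Changes of sign were as follows. For the sham + v group, Slc4a2 was -0.12 and -0.14 with limma (pseudocounts 1 and 0.1), -0.12 to 0.31 without single libraries and -0.15 with Fastk added, Car14 -0.32 with limma at 0.1, Car13 -0.27 to 0.66 and Car4 -2.48 to 5.76 without single libraries. For the OVX + E2 group, Slc4a7 was -0.028 and -0.086 with limma, Slc4a2 0.46 with Fastk added, and without single libraries Car13 -0.23 to 0.65, Car14 -0.22 to 1.46 and Slc4a2 -0.56 to 0.18. For the OVX + RAL group, Car2 was -0.45 and -0.47 and Car14 -0.54 and -1.79 with limma, and Slc4a2 0.27 with Fastk added. Without single libraries Car2 was -0.30 to 0.68, Car3 -0.40 to 0.047 and Slc4a4 -0.098 to 0.71, and without replicates 16 and 17 together Car2 was -2.06, Car14 -0.33, Slc4a4 -0.37 and Slc4a11 -1.52. Between the OVX + E2 and OVX + RAL groups, Car12 was -0.12 with TMM, -0.0030 with DESeq2 and -0.10 with limma at either pseudocount, Car14 1.54 and 2.85 and Slc4a2 -0.39 and -0.46 with limma. Without single libraries Car12 was -0.23 to 0.23, Car13 -0.76 to 0.0034, Slc4a2 -0.31 to 0.51 and Slc4a4 -0.13 to 0.49. Without replicates 16 and 17 together Car2 was 0.62, Car3 0.30, Car12 -0.097 and Car14 0.57.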
